A study of Mus musculus with 121 samples.

Results

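The genes described here encode the subunits of the proteasome and of the protein caps that open it. They were taken by symbol, as every gene of the expression table named Psma, Psmb, Psmc or Psmd with a number, or Psme1 to Psme4. The rule finds 43 of the 23946 genes. By role they are 8 alpha and 5 other beta subunits of the 20S core, 3 constitutive catalytic subunits (Psmb5, Psmb6 and Psmb7) and 3 catalytic immunosubunits (Psmb8, Psmb9 and Psmb10). The caps are encoded by 6 ATPases and 14 non-ATPases of the 19S particle, the 11S activator genes Psme1 and Psme2, and the further activators Psme3 and Psme4. The question followed below is how the level of this machinery, and the balance between the immunosubunits and their constitutive counterparts, differ between the myeloid progenitor states of the mutant marrow.

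The libraries are single bone marrow cells of C57BL/6 mice with the R412X allele of Gfi1, a transcriptional repressor required for neutrophil development. The genotype is written as Gfi1-R412X/- in one label and as HTZ in others, both for every cell. Wild-type cells were not analysed here. Marrow from crushed hindlimbs was enriched for CD117, the Kit receptor of progenitors, and sorted by flow cytometry, and cells were captured on the Fluidigm C1 microfluidic system. The labels name 46 of the sorted cells CD11b+ GMP-P and 75 GMP. CD11b is an integrin chain of maturing myeloid cells. No age and no animal is given, so each sorted population counts as 1 sample and no test between cells was made. SDs below are the spread over single cells and no replicate error. The authors' table of states gives each cell 1 of 12 names, used here as deposited. The sources used here do not say how states were assigned or whether proteasome genes took part, so differences between states describe the annotation of these same cells.

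The CD11b+ GMP-P cells share 1 run name and the GMP cells have 3 others, so population and run cannot be told apart. The run names of the CD11b+ cells and of 13 GMP cells read as the same day in late July, with the year left out of 1 of them, and the remaining name has no date. State and run groups with at least 5 cells were compared. In the run named R412X-GMP (62 GMP cells) these were 11 MP, 5 cMoP, 32 Mono and 9 Gran-1 cells. In the CD11b+ run they were 6 Mono, 13 Gran-2, 5 Myelo-1, 11 Myelo-2 and 7 Myelo-4 cells. Of the 13 GMP cells with a late July run name, 7 were Myelo-2. No 2 cells held identical values, and the highest correlation between any 2 cells was 0.73. The 13 pairs of a late July GMP and a CD11b+ cell that share a cell number correlated at a median of 0.47, and the other 585 such pairs at 0.48. Between the run names of the late July GMP cells, the 3 same-number pairs had a median of 0.52 and the other 27 of 0.49.

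Proteasomes degrade proteins marked with ubiquitin. In the 20S core the subunits encoded by Psmb5, Psmb6 and Psmb7 cut the chain, and in immune cells or under interferon they are replaced by those of Psmb8, Psmb9 and Psmb10, which gives the immunoproteasome and favours peptides that fit MHC class I molecules. The 19S cap recognises and unfolds ubiquitinated substrates, whereas the 11S ring of the Psme1 and Psme2 products opens the core without ubiquitin and is also induced by interferon.

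Promoters of the members hold letters of 3 motifs tied to these programs in the literature, and 1 match is shown for each of 4 genes whose levels are followed below. RefSeq windows of 250 bases before to 50 after the gene start (GRCm38.p6, a later build than the mm9 of the data) exist in the table used for 36 of the 43 members, as 39 windows. Both strands were searched. Capitals mark the match and each stretch is 30 bases long, read along the gene's own strand.
Psmb5 (chr14:54618024-54618053, minus strand): acgtgaagttgTGACGTCGCggcgttgcca
Psmb6 (chr11:70525337-70525366, plus strand): actaaagagagTGACGGAGCgctttacgac
Psmb8 (chr17:34198087-34198116, plus strand): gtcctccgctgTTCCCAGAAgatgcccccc
Psme1 (chr14:55578493-55578522, plus strand): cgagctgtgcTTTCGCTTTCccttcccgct
The antioxidant response core TGACNNNGC, bound by Nrf1 and Nrf2 (encoded by Nfe2l1 and Nfe2l2), begins 47 bases before the start of Psmb5 and 9 before that of Psmb6. It was found in 6 of the 39 member windows (15.4%) and in 12.4% of all 32851 windows, and the other 4 genes were Psmc6, Psmd9, Psmd12 and Psme4. The gamma-activated site TTCNNNGAA, which is its own reverse complement, begins 97 bases before the start of Psmb8. This motif was in 2 member windows (5.13%), of Psmb8 and Psmd2, against 8.30% of all. The interferon-stimulated response core, GAAA, any 2 bases and GAAA, is bound by IRF proteins. It lies on the reverse strand of Psme1 and begins 9 bases after its start. This core was in 4 member windows (10.3%), of Psmb3, Psmd4, Psmd9 and Psme1, against 3.44% of all. Psmd9 was the 1 member with matches to 2 motifs, at places that do not overlap. A match describes the sequence and shows no binding. The windows of Psmb9, Psmb10 and Psme2 had no match, which says only that these letters are not in these windows.

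Values are the deposited log2(TPM + 1), where TPM is the share of a cell's transcripts corrected for length and scaled to a fixed total, so levels may be set beside each other between genes. A gene was counted as detected at a TPM of 1 or more. TPM keeps no read number, so depth is unknown and a 0 can be a missed transcript. Over all cells the highest mean level was that of Psma7, an alpha subunit, at 8.02 ± 3.14 with detection in 111 cells. Psmb1, a beta subunit without a protease site, followed at 7.77, and Psmb3 of the same kind at 7.47. Among the constitutive catalytic genes Psmb6 stood at 7.14, Psmb5 at 5.52 and Psmb7 at 5.40, and among the immunosubunits Psmb8 stood at 6.16, Psmb9 at 4.38 and Psmb10 at 4.18. The 11S genes Psme2 and Psme1 had 6.97 and 6.78. Psmd14, the 19S enzyme that removes ubiquitin chains, was the highest non-ATPase at 6.03, and Psmc3 the highest ATPase at 5.47. At the low end lay Psmd13 at 2.06, Psmd3 at 1.43 and Psmd9, an assembly chaperone of the 19S base, at 1.09 with detection in 29 cells. Psmb11, the catalytic subunit of the thymus, was detected in 2 cells, and Psma8, the alpha subunit of the testis, in 3, all Mono cells of the R412X-GMP run. The other 41 genes were detected in at least 29 cells. Reads of Psme2 may be shared with its near-identical copy Psme2b, listed apart at a mean of 1.51 and detected in 53 cells, so values of Psme2 are uncertain to that extent.

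The level of the whole family separated the states into an upper and a lower tier. The mean over the 43 genes was 6.16 ± 0.53 in MP, 5.76 ± 1.08 in cMoP, 6.29 ± 1.02 in Mono and 6.59 ± 0.62 in Gran-1 of the R412X-GMP run, and 6.49 ± 0.75 in Mono of the CD11b+ run. It was 4.77 ± 1.28 in Gran-2, 3.36 ± 1.47 in Myelo-1, 2.86 ± 0.68 in Myelo-2 and 1.82 ± 0.69 in Myelo-4 of the CD11b+ run, and 3.32 ± 0.99 in Myelo-2 of late July GMP. Means of the upper tier differed by less than the SD of the cMoP cells. A median Mono cell of the R412X-GMP run had 37 of the 43 genes detected (range 16 to 41), a Gran-2 cell 33 (14 to 38), a Myelo-2 cell of the CD11b+ run 19 (12 to 24) and a Myelo-4 cell 12 (4 to 18). The ranges of neighbouring states overlapped. Summed over the family, the median cell held a TPM of 13940 in Mono of the R412X-GMP run, 8133 in Gran-2, 4770 in Myelo-2 and 2997 in Myelo-4 of the CD11b+ run.

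**Figure D1:**
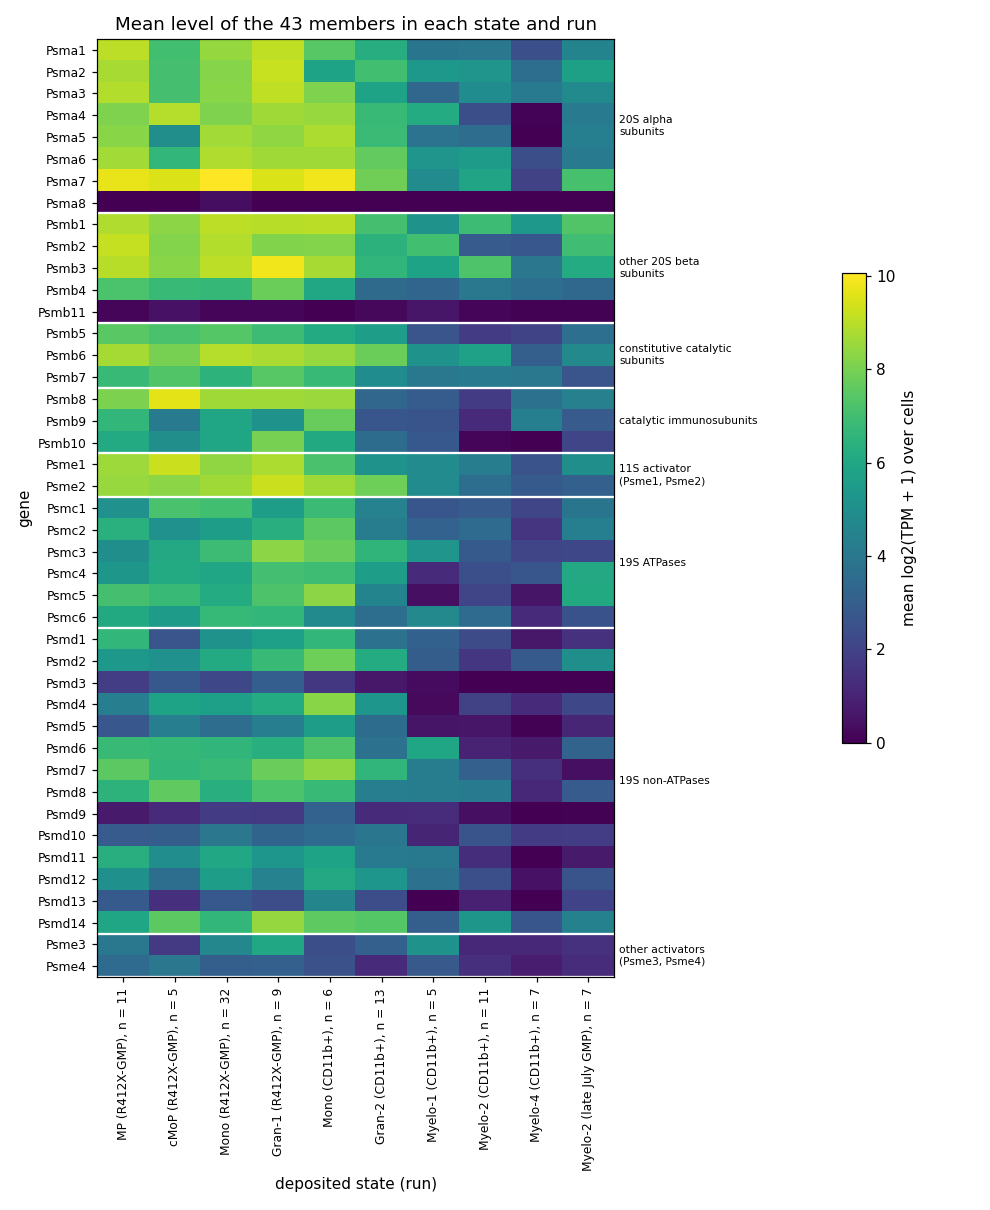
Mean log2(TPM + 1) of each of the 43 proteasome genes (rows, grouped by role) in the 10 state and run groups with at least 5 cells (columns), as colour. The 5 left-hand columns, from MP to CD11b+ Mono, are brightest for most genes, Psma8 and Psmb11 are dark throughout, and the family fades from Gran-2 to Myelo-4, where the mean over all 43 genes was 1.82.

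The number of detected genes of a cell moved with the level of the family. Its median was 4671.5 in Mono and 4860 in Gran-1 of the R412X-GMP run, 4434 in Mono, 3760 in Gran-2, 2261 in Myelo-2 and 1642 in Myelo-4 of the CD11b+ run. Over all cells the mean family level and the number of detected genes had a Pearson r of 0.93, and of 0.82, 0.93 and 0.87 within the R412X-GMP, CD11b+ and late July cells. Both measures come from the same libraries, so this is a description. Transcripts of neutrophil granule proteins (Ngp, Camp, Ltf, Lcn2, Chil3, S100a8 and S100a9) took up more of the TPM total in the lower tier than in the upper. Their summed TPM had a median of 0 in cMoP, 42.3 in Mono and 4384 in Gran-1 of the R412X-GMP run. In the CD11b+ run it was 2910 in Mono, 145954 in Gran-2, 462895 in Myelo-2 and 527447 in Myelo-4, of totals between 999517 and 1001450. Within the upper tier the order was not opposite, since Gran-1 had the highest family mean and cMoP the lowest. The part of either in the family's level was not tested.

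**Figure D2:**
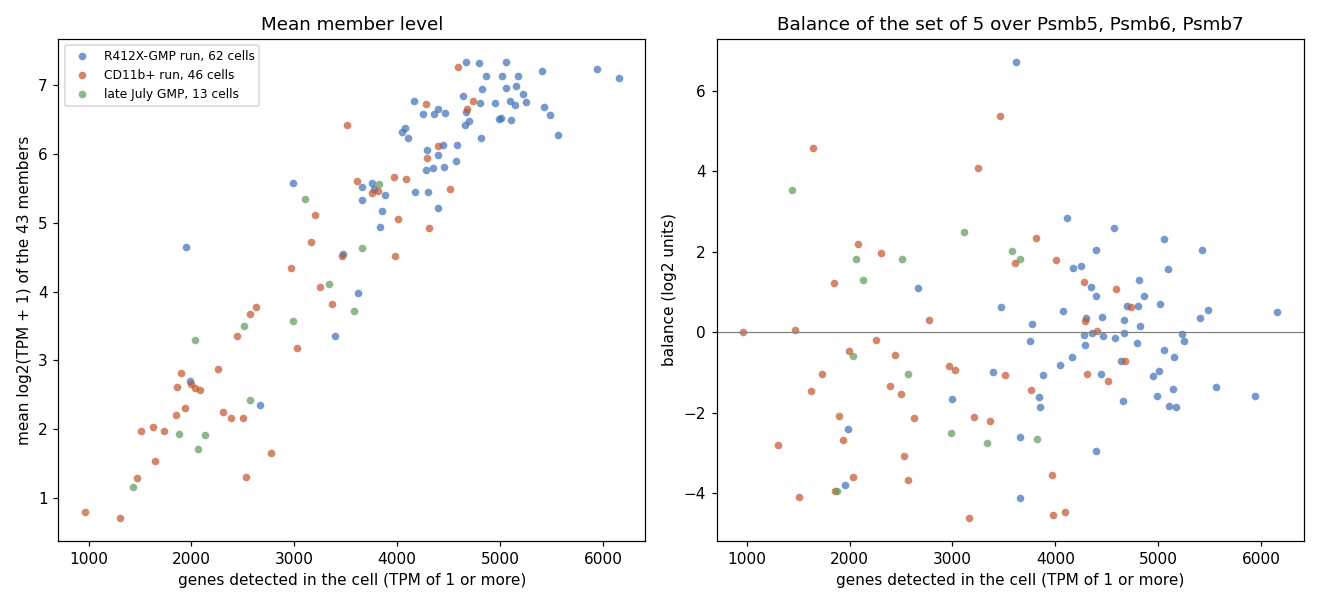
Left, mean log2(TPM + 1) over the 43 proteasome genes per cell, and right, the per-cell balance of the immunoproteasome set over the constitutive set (log2 units), each against the number of genes detected in that cell; points are single cells, coloured by run. The family mean climbs with detected genes (r 0.93), whereas the balance has an r of 0.14. A cell with all genes of both sets at 0 has a balance of 0.

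A measure within each cell sets the immunoproteasome genes against their counterparts. The balance is the mean log2(TPM + 1) of Psmb8, Psmb9, Psmb10, Psme1 and Psme2 minus that of Psmb5, Psmb6 and Psmb7. Over all cells it was −0.33 ± 2.08, and it had an r of 0.14 with the number of detected genes. The balance is 0 in a cell with none of these genes, as in the 1 Myelo-3 cell, so genes at 0 limit it. In the R412X-GMP run it lay near 0, at −0.08 ± 1.15 in MP, −0.11 ± 1.5 in Mono and 0.27 ± 1.15 in Gran-1, differences well within the spread of single cells. The 5 cMoP cells had −4.13, −2.95, −1.36, 0.53 and 6.73, the widest spread of any group. Both extremes of the R412X-GMP run thus lay in the smallest group compared there.

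Within the CD11b+ run the balance was highest in Mono and low in Gran-2 and Myelo-2. The 6 Mono cells ran from −1.07 through a median of 0.85 to 1.80 (mean 0.49 ± 1.14), with 4 of 6 above 0. Gran-2 cells ran from −4.62 through −1.44 to 4.09 (−1.60 ± 2.58), with 3 of 13 above 0. Myelo-2 cells ran from −4.09 through −2.08 to 1.22 (−1.69 ± 1.55), with 1 of 11 above 0. Single cells overlapped between all 3 states, and the mean difference of 2.09 between Mono and Gran-2 was smaller than the SD of the Gran-2 cells. Myelo-1 cells had −3.59, −1.54, −0.83, 1.98 and 2.35, and Myelo-4 cells had a mean of −0.34 ± 2.93. Among the late July GMP cells Myelo-2 had −0.20 ± 2.04, above the same state of the CD11b+ run. In groups of fewer than 5 cells, the 3 Gran-1 cells of the CD11b+ run had 0.28, 0.32 and 5.37.

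**Figure D3:**
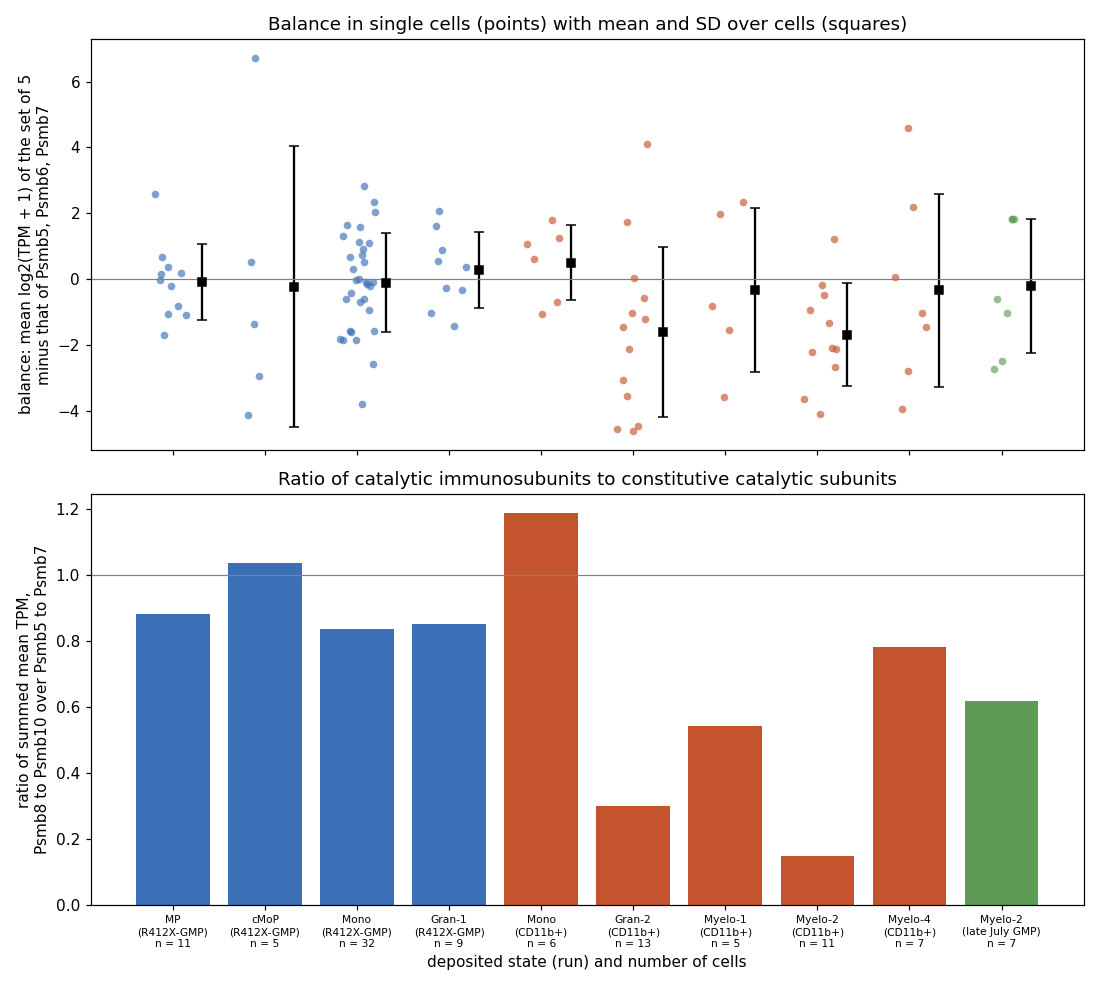
Top, the per-cell balance (mean log2(TPM + 1) of Psmb8, Psmb9, Psmb10, Psme1 and Psme2 minus that of Psmb5, Psmb6 and Psmb7) by state and run, with points for cells and squares with bars for the mean and SD over cells. Bottom, the ratio of the summed mean TPM of Psmb8, Psmb9 and Psmb10 to that of Psmb5, Psmb6 and Psmb7 (bars from 0), which was 1.19 in CD11b+ Mono, 0.300 in Gran-2 and 0.148 in CD11b+ Myelo-2.

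On the linear scale the catalytic immunosubunits together reached 0.769 of the summed mean TPM of the constitutive ones over all cells. The ratio was 0.881 in MP, 1.04 in cMoP, 0.837 in Mono and 0.852 in Gran-1 of the R412X-GMP run. It was 1.19 in Mono, 0.300 in Gran-2, 0.542 in Myelo-1, 0.148 in Myelo-2 and 0.782 in Myelo-4 of the CD11b+ run. In Myelo-2 of late July GMP it was 0.618, and between 0.309 and 0.877 on leaving out any 1 cell. Single cells carried part of these ratios. Without CD11b+ GMP-P cell 45 the Myelo-1 ratio was 0.143, without cell 35 the Myelo-2 ratio was 0.0821, and without GMP cell 26 the cMoP ratio was 0.648. Leaving out any 1 cell kept the ratio between 1.09 and 1.33 in CD11b+ Mono and between 0.225 and 0.359 in Gran-2. By pairs that occupy the same site, Psmb8 stood at 3.36 times Psmb5 in CD11b+ Mono and at 0.454 times in Gran-2. Psmb9 stood at 0.656 and 0.131 times Psmb6, and Psmb10 at 0.866 and 0.465 times Psmb7, in the same 2 states. All 3 pairs were therefore lower in Gran-2, but single cells moved them. Without cell 33, Psmb8 to Psmb5 was 0.877 in Gran-2, without cell 20, Psmb9 to Psmb6 was 0.0657 there, and without Mono cell 6, Psmb10 to Psmb7 was 0.469 in Mono, level with Gran-2. Psmb8 exceeded Psmb5 in 5 of 6 Mono and in 3 of 13 Gran-2 cells.

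All 3 catalytic immunosubunits were detected together in 22 of 32 Mono cells (68.8%, exact 95% interval 50 to 83.9%) and 8 of 9 Gran-1 cells of the R412X-GMP run. They were detected together in 6 of 6 Mono cells, 3 of 13 Gran-2 cells (23.1%, 5.04 to 53.8%) and 0 of 11 Myelo-2 cells (upper limit 27.3%) of the CD11b+ run. The Gran-2 cells were not short of the counterparts to the same degree, since all 3 constitutive subunits were found together in 9 of 13. In Myelo-2 the constitutive subunits were likewise found together in 0 of 11 cells. Of the 11 Myelo-2 cells, 7 had none of the 3 immunosubunits. Intervals cover counting error only.

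Between Mono and Gran-2 of the CD11b+ run, Psmb8 and Psmb9 had the widest gaps of the family. Psmb8, the immunosubunit with chymotrypsin-like activity, had 7.26, 8.75 and 9.98 as lowest, median and highest log2(TPM + 1) in the 6 Mono cells, and 0, 1.09 and 9.54 in the 13 Gran-2 cells. It was detected in 6 of 6 and 7 of 13 cells (53.8%, 25.1 to 80.8%). Mono cells were thus all high, whereas Gran-2 cells ranged from none to the Mono level. Psmb9, the counterpart of Psmb6, had 4.75, 8.25 and 9.03 in Mono and 0, 1.64 and 8.81 in Gran-2, again with detection in 6 of 6 and 7 of 13 cells. Psmb10, the counterpart of Psmb7, had 3.01, 6.14 and 8.90 in Mono and 0, 4.0 and 8.28 in Gran-2. All 3 genes overlapped between the states in single cells. The differences of means, Mono minus Gran-2, were 5.22 for Psmb8 (8.54 ± 1.06 against 3.31 ± 4.01), 5.0 for Psmb9 (7.70 ± 1.61 against 2.70 ± 3.19) and 2.54 for Psmb10 (6.10 ± 2.30 against 3.56 ± 3.38). Psmb8 and Psmb9 lay at percentiles 99.8 and 99.7 of all genes kept in this comparison. Because many Gran-2 cells are at 0, the log2 ratio of mean TPM was smaller, 1.74 for Psmb8 (mean TPM 458 against 136) and 2.39 for Psmb9 (294 against 55.5). Without the Gran-2 cell that moved each most, the Gran-2 means were 85.8 for Psmb8 (without cell 21) and 22.8 for Psmb9 (without cell 20).

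The constitutive counterparts differed less on the log scale. Psmb5, with chymotrypsin-like activity, had 3.23, 6.48 and 8.27 in Mono and 0, 5.79 and 10.88 in Gran-2, a difference of 0.51. The direction of Psmb5 turned on the linear scale, where its mean TPM was 136 in Mono and 301 in Gran-2. Without the 1 highest Gran-2 cell (cell 33), the latter was 169. Psmb6, with caspase-like activity, had 6.72, 8.60 and 9.85 against 0, 7.82 and 10.40, a difference of 0.69. Psmb7, with trypsin-like activity, had 2.56, 7.50 and 8.37 against 0, 5.95 and 9.25, a difference of 1.90. The ranges of Mono lay inside those of Gran-2 for all 3 genes. Of the 11S genes, Psme1 had 4.35, 7.22 and 10.17 in Mono and 0, 5.30 and 11.43 in Gran-2 (difference 2.07). Psme2 had 6.15, 8.86 and 9.91 against 2.79, 8.63 and 11.05 (difference 0.79), and was detected in every cell of both states, so it did not follow Psmb8 and Psmb9. Psme2b, its copy, had means of 3.02 and 1.14. On average the 5 immunoproteasome genes were 3.12 and the 3 constitutive genes 1.03 higher in Mono.

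**Figure D4:**
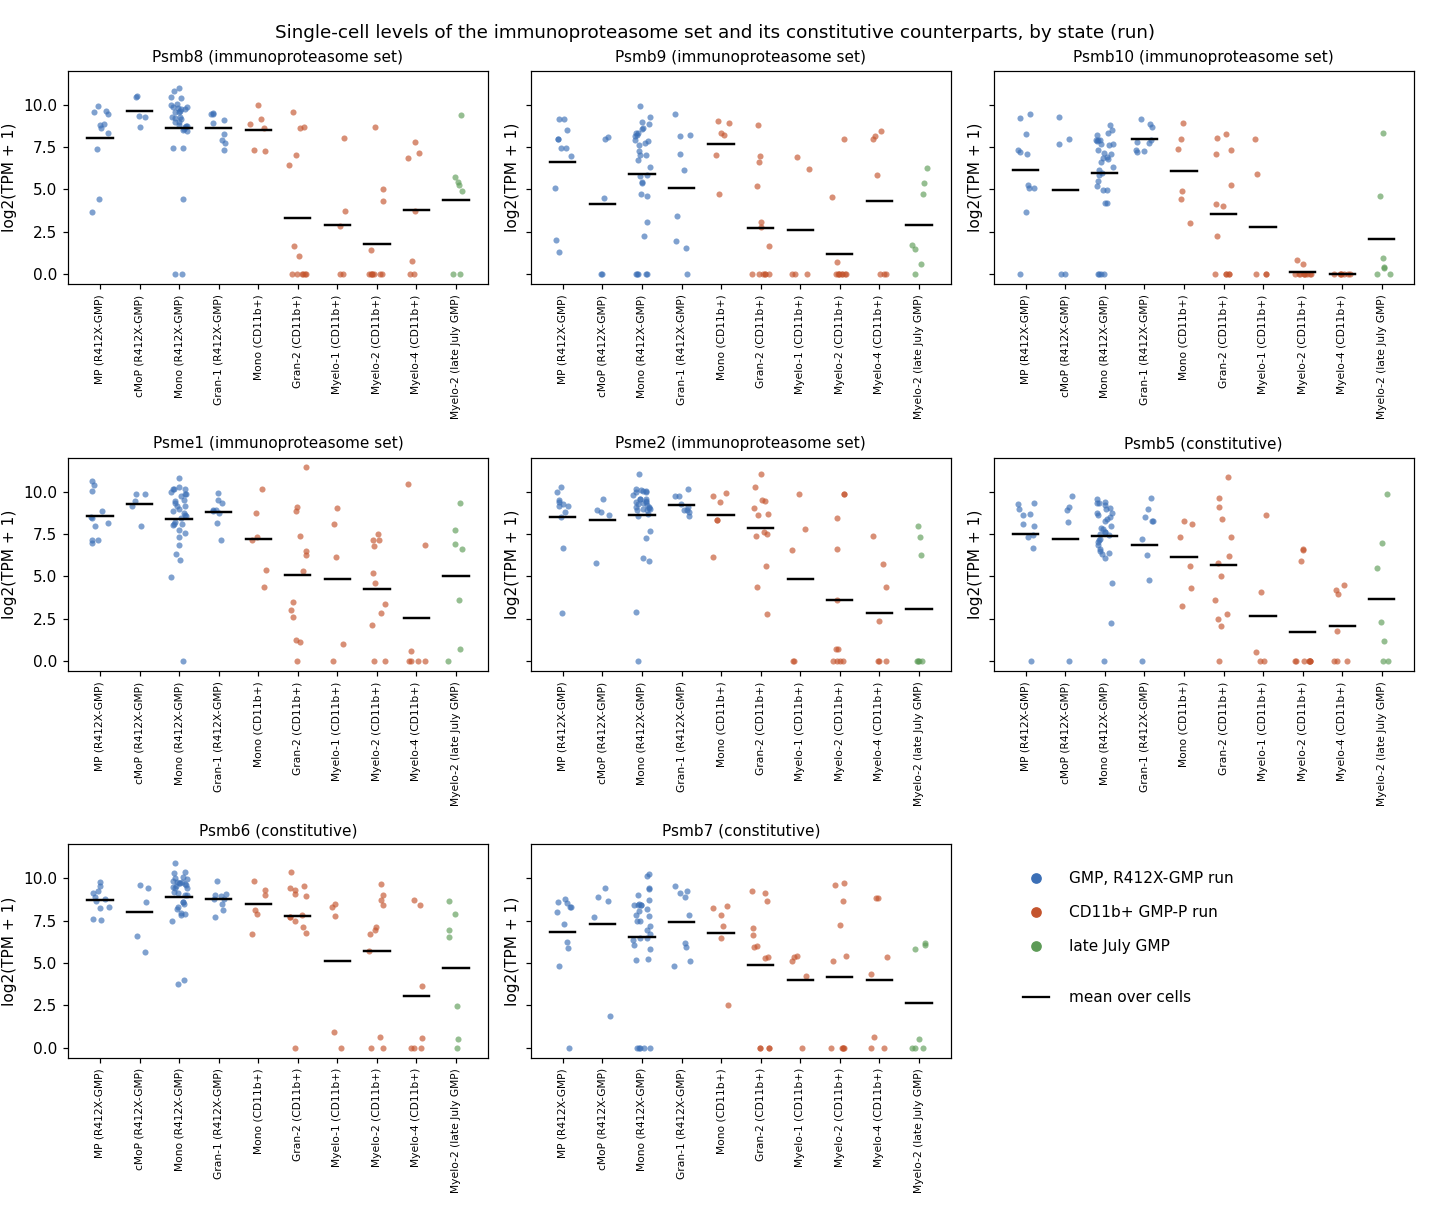
Level (log2(TPM + 1)) of the 8 immunoproteasome and constitutive catalytic genes in each cell of the 10 state and run groups, with points for cells and a bar for the mean. Psmb8 lies between 7.26 and 9.98 in all 6 CD11b+ Mono cells and between 0 and 9.54 in Gran-2, while Psmb6 and Psme2 keep high medians in Gran-2 (7.82 and 8.63).

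Over the family, 31 of the 41 kept members were higher in Mono than in Gran-2 by more than 1 on the log2 scale and 1 was lower, against 31.3% of all kept genes higher and 11.8% lower. A gene was kept where at least 10% of the cells in 1 of the states had it detected. The median difference of the members was 1.90 and that of all kept genes 0.43. By the log2 ratio of mean TPM the members higher numbered 15 and those lower 4, with a median of 0.64. For this ratio no share of all kept genes was counted. By role, those higher by more than 1 were 3 of 3 catalytic immunosubunits, 1 of 3 constitutive catalytic subunits, 5 of 7 alpha subunits, 4 of 4 other beta subunits, 6 of 6 ATPases, 10 of 14 non-ATPases and 1 of 2 genes in each activator pair. Psmc5, an ATPase of the 19S base, came next, with 6.91, 8.65 and 9.06 in Mono and 0, 5.97 and 9.28 in Gran-2 (difference 3.76). Psma7 had 9.35, 9.74 and 10.86 against 2.54, 8.47 and 10.83, and Psmb1 had 7.38, 9.20 and 9.56 against 0, 8.26 and 9.38. Both were less even among Gran-2 cells than among Mono cells. Psmd14 had medians of 8.79 and 9.02 and Psmc3 of 8.43 and 8.49, so these 19S genes were about level at the median. The genes on the other side were Psma2, an alpha subunit, at −1.19, Psme3, the nuclear activator, at −0.68, and Psmd10, a chaperone of 19S assembly, at −0.44.

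Detected genes differed between these states (medians 4434 and 3760), so both were also limited to cells with at least 3500, a value chosen after the data were seen. With 6 Mono and 8 Gran-2 cells (medians 4434 and 4032) the differences were 4.44 for Psmb8, 4.41 for Psmb9, 2.50 for Psmb10, 1.57 for Psme1 and 0.27 for Psme2. Those of Psmb5, Psmb6 and Psmb7 were 0.01, 0.38 and 0.61. The balance difference was 2.31, as large as in all cells, whereas the median over members went from 1.90 to 1.02 beside 0.19 for all kept genes. Members higher by more than 1 numbered 22, and 1 was lower, without a count of all kept genes beside them.

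Monocyte and neutrophil granule markers followed the names of the 2 states, with an overlap, whereas primary granule genes did not separate them. All 7 monocyte markers (Irf8, Ly86, F13a1, Ccr2, Ms4a6c, Csf1r and Klf4) were detected in Mono of the CD11b+ run. They ranged from 3 of 6 cells for Ccr2 to 6 of 6 for Irf8 and Ms4a6c. Each was also detected in Gran-2. Their summed TPM was 567 to 3219 in Mono, against 0 to 1648 with a median of 1.08 in Gran-2. The 7 neutrophil granule genes were detected in both, at 836 to 44078 in Mono and 17588 to 222800 in Gran-2. The 4 primary granule genes Elane, Mpo, Prtn3 and Ctsg had list means of 13.09 in Mono and 12.85 in Gran-2. Ngp, a granule protein gene of neutrophils, was found in 6 of 6 Mono cells of this run and in 0 of 32 Mono cells of the R412X-GMP run (upper limit of the share 9.38%). Of 6 dendritic cell markers, 1 was detected in each state, at a summed TPM of up to 12.9 in Mono and 1.51 in Gran-2, and Cd74, H2-Aa, Flt3 and Itgax were at 0 in Mono. Of 4 macrophage markers, Vcam1 and Slc40a1 were detected in 10 and 11 of 13 Gran-2 cells, with C1qa and C1qb at 0. Of the stem and progenitor markers, Cd34 had a mean of 7.18 in Mono (6 of 6 cells) against 2.02 in Gran-2 (4 of 13) and Kit 3.98 against 1.25, and 4 of the 5 were detected in each, at a summed TPM of 51.4 to 885 against 0.10 to 233. The part of these markers in the immunosubunit values was not tested.

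Gran-2 and Myelo-2 differed in the bulk of the family and hardly in the mean balance, which genes at 0 limit in Myelo-2. Of 41 kept members, 29 were higher in Gran-2 than in Myelo-2 of the CD11b+ run by more than 1 and 0 were lower, against 43.4% and 5.29% of all kept genes, with medians of 2.0 and 0.83. Psmd2, a scaffold of the 19S base, led with 4.58, followed by Psma4, an alpha subunit, at 4.43 and Psme2 at 4.23. Psmb5 differed by 3.91, with 0, 0 and 6.60 as lowest, median and highest in Myelo-2. Psmb10 differed by 3.43, as its highest value in Myelo-2 was 0.86 and it counted as detected in 0 of 11 cells (upper limit of the share 27.3%). Psmb8 and Psmb9 were already low in Gran-2 and differed by 1.54 and 1.5. They reached 8.71 in 4 detected Myelo-2 cells at most for Psmb8, and 8.0 in 2 cells for Psmb9. The beta subunits Psmb3 and Psmb4 lay at −0.69 and −0.57 and Psme4, a nuclear activator, at −0.17, so these did not share the gap. The balance differed by 0.09. In Myelo-2, 7 of 11 cells had no catalytic immunosubunit and Psmb5 was detected in 3 of 11, so this difference is near the floor of the measure. The ratio of summed mean TPM of the catalytic immunosubunits to the constitutive ones was 0.300 in Gran-2 and 0.148 in Myelo-2. With cells of at least 2000 detected genes only (13 against 6), 24 members were higher and 1 lower. The median was 1.26 beside 0.60 for all kept genes, whose share past 1 was not counted there.

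Against the 5 Myelo-1 cells, 23 of 42 kept members were higher in Gran-2 and 4 were lower by more than 1, against 36.1% and 11% of all kept genes. The medians were 1.44 for the members and 0.59 for all kept genes. The widest gaps were in 19S genes, Psmd4, a ubiquitin receptor, at 5.04, Psmc4 at 4.43 and Psmd14 at 4.35. Lower in Gran-2 were Psmd6 at −2.18, Psme3 at −2.03 and Psme4 at −1.59. Psmb8 had 0, 0, 2.87, 3.70 and 8.04 in the 5 Myelo-1 cells, Psmb9 had 0, 0, 0, 6.18 and 6.93, and Psmb10 had 0, 0, 0, 5.93 and 7.97. With all 5 cells those 3 genes differed little from Gran-2, by 0.39, 0.08 and 0.78, whereas Psmb5 and Psmb6 differed by 2.99 and 2.69. Psmb7 also differed little, with means of 4.87 in Gran-2 and 4.02 in Myelo-1. Without CD11b+ GMP-P cell 41 the mean TPM of Psmb5 in Myelo-1 went from 81.3 to 4.15. The highest value of each of the 3 immunosubunits came from the same cell, CD11b+ GMP-P cell 45. Without it, their mean TPM in Myelo-1 went from 56.03 to 4.58, from 38.44 to 17.92 and from 61.95 to 14.97. The small differences of the 3 immunosubunits therefore depend on that cell. The balance differed by −1.27, and by −1.26 between Gran-2 and Myelo-4.

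Myelo-4 cells of the CD11b+ run had the least of the family but not of Psmb8 and Psmb9. Of 38 kept members 19 were higher in Myelo-2 than in Myelo-4 by more than 1 and 3 were lower, against 30.7% and 10.9% of all kept genes, with medians of 1.10 and 0.42. Psma7 led with 0, 6.08 and 10.98 in Myelo-2 against 0, 0.81 and 7.67 in the other state (difference 3.88), followed by Psma5 at 3.58 and Psmb3 at 3.30. The 3 lower ones were Psmb9 at −3.14, Psmb8 at −1.99 and Psmd2 at −1.25. Psmb8 had 0, 3.74 and 7.78 in the 7 Myelo-4 cells against 0, 0 and 8.71 in Myelo-2, and Psmb9 had 0, 5.86 and 8.45 against 0, 0 and 8.0. Each was detected in 4 of 7 Myelo-4 cells, so the groups overlapped. Psmb10 was at 0 in all 7 Myelo-4 cells (upper limit of the share 42.9%). In late July GMP, the 7 Myelo-2 cells had 0, 5.26 and 9.42 for Psmb8 (5 detected) and 0, 1.70 and 6.28 for Psmb9 (5 detected), higher at the median than Myelo-2 of the CD11b+ run. The 3 late July Myelo-4 cells had 0, 0.63 and 9.37 for Psmb8 and 0 in all for Psmb9, so Psmb9 was not seen in that state there.

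**Figure D5:**
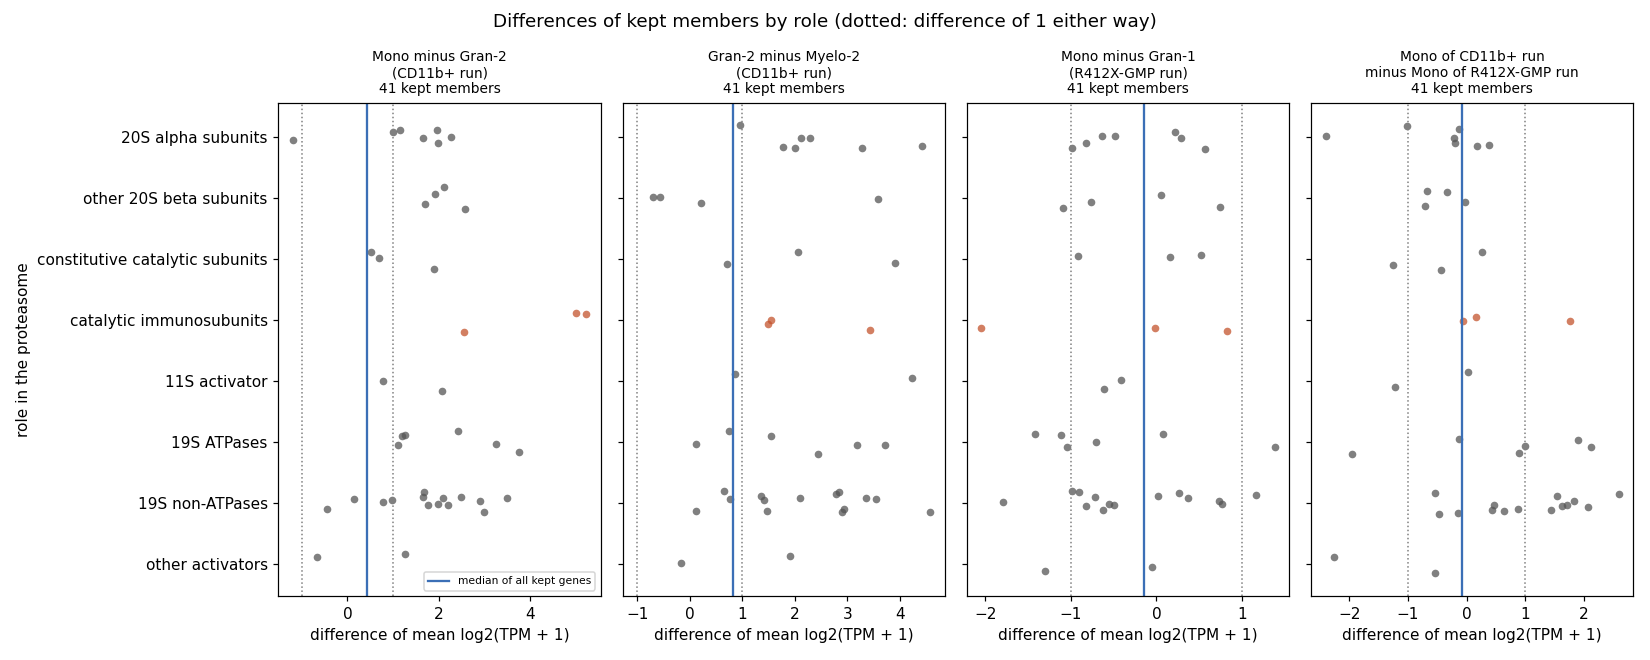
Difference of mean log2(TPM + 1) for each kept proteasome gene (points, by role) in 4 comparisons, with the median of all kept genes as a blue line and dotted lines at −1 and 1. In Mono minus Gran-2 the catalytic immunosubunits reach 5.22 and stand above the constitutive ones, in Gran-2 minus Myelo-2 no member is below −1, and in Mono minus Gran-1 most members lie between the dotted lines.

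Mono and Gran-1 of the R412X-GMP run, did not show the Psmb8 and Psmb9 gap. Psmb8 had 0, 9.25 and 10.96 in the 32 Mono cells and 7.32, 8.89 and 9.48 in the 9 Gran-1 cells, a difference of −0.02. Psmb9 had 0, 7.02 and 9.92 against 0, 6.16 and 9.45, a difference of 0.82. Psmb10 was instead lower in Mono, with 0, 6.84 and 8.78 against 7.19, 7.82 and 9.17 (difference −2.05). All Gran-1 cells held Psmb10, and 28 of 32 Mono cells did. Psme1 had 0, 8.77 and 10.78 against 7.12, 8.89 and 9.94, and Psme2 had 0, 9.25 and 11.03 against 8.54, 9.08 and 10.13, with differences of −0.42 and −0.62. Psmb5, Psmb6 and Psmb7 differed by 0.52, 0.16 and −0.91. Of 41 kept members 2 were higher in Mono by more than 1 and 7 were lower, against 7.62% and 16.5% of all kept genes, with medians of −0.50 and −0.14. These shares are near the background. With cells of at least 3500 detected genes 5 were higher and 3 lower, so the counts give no direction. No share of all kept genes was counted for those cells. The higher ones were the ATPase Psmc1 at 1.38 and Psmd12 of the 19S lid at 1.17. After Psmb10, the lowest were Psmd14 at −1.79 (4.53, 8.65 and 10.11 in Gran-1) and Psmc3 at −1.43 (5.31, 8.51 and 9.70). Of the 6 ATPases 1 was higher and 3 were lower, with a median of −0.88. The balance differed by −0.38.

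MP and Mono of the R412X-GMP run were close in the family. With 1 member higher in MP and 5 lower by more than 1, against 8.87% and 13.4% of all kept genes, the medians were −0.08 for members and −0.11 for all. Psmd1, a 19S scaffold, was higher by 1.54, and Psmc1, Psmc3 and Psmd4 had −1.92, −1.88 and −1.39. Psmb8 had 3.66, 8.80 and 9.90 in MP, Psmb9 had 1.32, 7.46 and 9.19, and Psmb10 had 0, 7.09 and 9.45. The balance differed by 0.03.

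The 5 cMoP cells had high Psmb8 and uneven Psmb9 and Psmb10. Psmb8 had 8.67, 9.26, 9.33, 10.48 and 10.54, the highest mean of any group at 9.66 and 1.06 above Mono. Psmb9 had 0, 0, 4.50, 7.99 and 8.09 and Psmb10 had 0, 0, 7.68, 7.97 and 9.25, so each of these was at 0 in 2 cells. Psmb6, Psmb7, Psme1 and Psme2 were detected in all 5 cells and Psmb5 in 4. Of 41 kept members 2 were higher than in Mono by more than 1 and 14 were lower, against 15.8% and 20.1% of all kept genes, with medians of −0.56 and −0.14. Besides Psmb8 the higher one was Psmd8 of the 19S lid at 1.29. Psma5 had −3.70, Psme3 −2.96 and Psmd1 −2.50, and 5 of 7 alpha subunits were lower by more than 1. The balance differed by −0.13. Leaving out 1 cell at a time moved the count of higher members from 1 to 8, so 5 cells do not settle it.

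Mono cells came from both sorted populations and allow a look across runs at 1 state name. Psmb8 was level, with a mean of 8.54 in the 6 CD11b+ cells and 8.60 in the 32 cells of the R412X-GMP run, and Psmb10 differed by 0.15. Psmb9 was 1.77 higher in the CD11b+ cells, while Psme1 and Psmb5 were 1.22 and 1.25 higher in the R412X-GMP cells. Of 41 kept members 10 were higher in CD11b+ Mono by more than 1 and 6 were lower, against 17.5% and 17.8% of all kept genes, with medians of 0.02 and −0.08. Both shares were near the background. Among the 10 were 7 of the 14 non-ATPases, led by Psmd4 at 2.59 and Psmd5, a 19S assembly chaperone, at 2.06, with the ATPase Psmc5 at 2.12. Psma2 had −2.40, Psme3 −2.26 and the ATPase Psmc6 −1.96. The monocyte marker list had like means in both (5.99 and 5.97), but single markers differed in opposite directions. Csf1r had 6.48 in CD11b+ Mono against 3.06, Ccr2 3.64 against 6.11 and Ms4a6c 6.96 against 8.51. Irf8, Ly86, F13a1 and Klf4 were closer. The neutrophil granule genes had 7.04 and 1.15. The part of these markers in the differences of the members was not tested.

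Between the whole populations most of the family was lower in CD11b+ GMP-P on the log scale. Against all GMP cells, 36 of 41 kept members were lower by more than 1 and 0 were higher, against 28.8% and 2.3% of all kept genes, with medians of −1.81 and −0.56. By the log2 ratio of mean TPM 9 were lower, and with cells of at least 3500 detected genes 10 were lower and 3 higher. With those cells the medians were −0.45 for members and −0.21 for all kept genes. Shares of all kept genes past 1 were not counted at these 2 settings. Psmb8 differed most, by −4.16 (3.58 ± 3.85 against 7.74 ± 2.96), and was detected in 25 of 46 cells (54.3%, 39 to 69.1%) and in 68 of 75. Psme1 and Psmb5 followed at −3.01 and −3.00, and Psmd9, Psmd10 and Psmd13 were nearest to 0. The family mean was 3.80 ± 1.83 against 5.62 ± 1.55, beside medians of 2870 and 4354 detected genes.

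The direction depended on which GMP cells were taken. Against the R412X-GMP run 38 members were lower and 0 higher by more than 1, with 36.3% and 2.74% of all kept genes. The median was −2.37 beside −0.68, and Psmb8 had −4.96. By the log2 ratio of mean TPM 13 were lower, with a median of −0.72, and no share of all kept genes was counted. Against the 13 late July GMP cells 11 members were higher and 2 were lower, with 12.7% and 5.95% of all kept genes and medians of 0.71 and 0.20. Psmd11 and Psmd7 of the 19S lid led with 2.19 and 2.17 and Psmb6 with 2.15, and Psmc5 and Psmc4 were lower at −2.23 and −1.41. Psmb8 was nearly level with late July GMP, at −0.36, and Psmb9 was 1.32 higher in CD11b+ GMP-P. Late July cells had a median of 2570 detected genes and the R412X-GMP cells 4521. States also differed, with Myelo-2 forming 7 of the 13 late July cells and Mono 32 of the 62 others. With cells of at least 3500 detected genes (16 CD11b+ against 56 R412X-GMP cells) the median went from −2.37 to −0.55 and Psmb8 from −4.96 to −2.33.

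Across single cells the immunosubunits were more closely related to each other in the CD11b+ run than in the R412X-GMP run. Other pairs of key genes went either way. Over the 46 cells of the CD11b+ run Pearson's r was 0.54 for Psmb8 with Psmb9, 0.41 for Psmb8 with Psmb10 and 0.45 for Psmb9 with Psmb10. Pairs across the sets reached like values, 0.41 for Psmb8 with Psmb6 and 0.51 for Psme2 with Psmb6, and the constitutive pairs had 0.04 (Psmb5 with Psmb6), 0.19 (Psmb5 with Psmb7) and 0.30 (Psmb6 with Psmb7). Over the 62 cells of the R412X-GMP run the same pairs of immunosubunits had −0.09, 0.06 and 0.11. The constitutive pairs, in the order above, had 0.11, 0.31 and −0.15 there. Psmb8 had 0.42 with Psmb5 and 0.43 with Psme2, beside 0.27 and 0.34 in the CD11b+ run. These correlations share library and depth and are descriptions. The genes most like the mean of Psmb8, Psmb9 and Psmb10 over those 62 cells, among 3845 genes, were Psmb3 (r 0.59), Ssr4 (0.55), Dnajc2 (0.55), Rbx1 (0.54), Trp53 (0.50) and Glo1 (0.50). Among the 50 genes with the highest r, Psmb3 was the 1 member other than Psmb9 and Psmb10, which are part of the mean. Psmb8, also part of it, ranked 86 with an r of 0.41, beside 0.67 for Psmb9 and 0.68 for Psmb10. The mean thus followed Psmb8 less than the other 2. The median r was 0.11 for members outside the mean and 0.12 for all genes.

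Other genes of the pathway are read against the same backgrounds as the members. In Mono minus Gran-2 of the CD11b+ run, against 31.3% of all kept genes higher, 11.8% lower and a median of 0.43, proteasome assembly and accessory genes had 7 of 12 higher by more than 1 and 1 lower (median 1.5). The inhibitor gene Psmf1 was at 1.73, the assembly chaperones Psmg2 and Psmg3 at 0.75 and 0.28, and the deubiquitinase gene Usp14 at −1.69. Of 4 kept genes that regulate proteasome transcription 1 was higher and 0 were lower (median 0.38), namely Nfe2l2 at 2.85, with Nfe2l1 at 0.08 and the partner gene Mafg at −0.17. Ubiquitin and segregase genes had 4 of 11 higher and 2 lower (median 0.65), with the shuttle receptor gene Ubqln1 at 0.65 and Nploc4, a cofactor of the segregase, at 0.29. MHC class I presentation genes had 5 of 11 kept genes higher and 1 lower (median 0.55), with the peptide transporter Tap2 at 1.33, the chaperones Pdia3 and Calr at 1.56 and 1.30 and the peptidase Erap1 at 0.32. Apart from the assembly genes, these lists were near the background or small.

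Interferon pathway genes as a list stood near the background between these states. Of 14 kept genes of 20, 5 were higher in Mono and 3 lower by more than 1, with a median of 0.11 beside the 31.3%, 11.8% and 0.43 of all kept genes. Irf8, a transcription factor of monocytes and dendritic cells, was 6.79 higher (8.15 against 1.36), and was detected in 6 of 6 Mono and 3 of 13 Gran-2 cells. Irf8 also stands among the monocyte markers above. The receptor gene Ifnar2 was at 3.97, Irf9 at −0.21 and Irf1, a factor known to drive immunosubunit genes, at −1.39 (2.91 against 4.30). Chosen after their values were seen, Nlrc5, Ifit1 and Ifit3 were listed at 0 in both states.

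In Mono minus Gran-1 of the R412X-GMP run fewer of all kept genes differed by more than 1 (7.62% higher and 16.5% lower, median −0.14), and so did fewer of the lists' genes. Assembly genes had 0 of 12 higher and 2 lower (median −0.44), Psmf1 at −1.61 and Psmg2 at −1.03. The regulators had 0 higher and 1 lower, Nfe2l2 at −1.11, the reverse of its direction in the CD11b+ run. Class I genes had 0 of 13 higher and 2 lower (median −0.29), Tap2 at −1.93 and Pdia3 at −1.33. Interferon pathway genes had 2 of 17 higher and 0 lower (median −0.35), Irf8 at 4.22 (7.53 against 3.31) and Irf9 at 1.39. Irf8 was higher in Mono in both runs. Psmb8 was higher in Mono of the CD11b+ run and differed by −0.02 in the R412X-GMP run. These comparisons differ in run and in the state set against Mono (Gran-2 or Gran-1). A link between Irf8 and Psmb8 was not tested. In Gran-2 minus Myelo-2, with 43.4% of all kept genes higher, 5.29% lower and a median of 0.83, assembly genes had 6 of 12 higher and 0 lower (median 1.06), class I genes 8 of 11 and 0 (median 2.20), and interferon pathway genes 6 of 14 and 1 (median 0.83). The interferon list was thus at the background.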

How the data were processed

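By its values, the authors' deposited expression table holds log2(TPM + 1) of 23946 genes in 46 CD11b+ GMP-P and 75 GMP cells. Back-transformed, cells sum to between 999517 and 1001450, and 81.7% of values are 0. The other deposited table names each cell's state. Bowtie2, RSEM and mm9 are named in the submitters' processing notes, without versions. TPM keeps no depth. The members, the gene lists and the comparisons were chosen with earlier results of these data known.

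Values were used as deposited, with Python 3.11.15, pandas 2.3.3, numpy 2.4.6, scipy 1.17.1 and matplotlib 3.10.9. Cells were grouped by state within run, and groups of at least 5 cells were compared by differences of mean log2(TPM + 1) over the genes that reached a TPM of 1 in 10% or more of the cells of 1 group. Differences past 1 were counted. This scale understates differences of low genes. With 1 sample per population, no test was made. Shares carry exact (Clopper-Pearson) 95% intervals, and a share of 0 the limit set by 3 cells. Named were the 8 genes of the balance, the highest member of each structural group, up to 3 members at each end of each comparison, and up to 4 genes of each pathway list with the largest absolute difference in Mono minus Gran-1. Other members given a value were named after their values were seen. The script that computes differences was tested on simulated data. Alternatives were another pseudocount, ratios of mean TPM, upper-quartile scaling, no filter, a detection limit of TPM 10, a minimum of detected genes and leaving out each cell. The promoter windows come from RefSeq on GRCm38.p6. A few genes of the pathway lists are not reported here.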

Additional observations from a re-analysis of the deposited data

How the results depend on the processing

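Balance differences kept their sign and moved by less than the spread of cells in Mono minus Gran-2, from 0.87 by mean TPM to 3.22 with the catalytic immunosubunits alone, beside 2.09. Counts of members were less stable. The share of all kept genes past 1 was not counted under the alternatives, so member counts there have no background. Of the summary values recomputed, 52 moved and 276 did not, and of single-gene values 4 moved, 1 reversed and 643 did neither. A difference counted as moved where it shifted by at least the SD over single cells, pooled over both groups. It counted as reversed only where it had been past 1 and changed sign. Smaller differences could thus change sign uncounted, as that of Psmb5 in Mono minus Gran-2 did by mean TPM. The cause of these changes was not tested. No paired analysis was possible because no test was made and cell numbers do not pair cells.

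By the log2 ratio of mean TPM, the member median went from 1.90 to 0.64 in CD11b+ Mono minus Gran-2 and from −2.37 to −0.72 in CD11b+ GMP-P minus the R412X-GMP run. Members higher by more than 1 went from 31 to 15 in Mono minus Gran-2, from 10 to 4 in Mono between runs and from 2 to 1 in cMoP minus Mono. Members lower went from 38 to 13 against the R412X-GMP run, 36 to 9 against all GMP, 2 to 1 against late July GMP, 0 to 2 in Gran-2 minus Myelo-2, 5 to 2 in MP minus Mono, 7 to 1 in Mono minus Gran-1, 1 to 4 in Mono minus Gran-2, 3 to 6 in Myelo-2 minus Myelo-4 and 14 to 6 in cMoP minus Mono. Psme1 reversed in Myelo-2 minus Myelo-4, from 1.68 to −1.88. Psmb8 and Psmb9 in Mono minus Gran-2 went to 1.74 and 2.39, and Psmb10 in Gran-2 minus Myelo-2 from 3.43 to 6.02. At a detection limit of TPM 10, Psme1 was detected in 61.5% of Gran-2 cells, beside 92.3%.

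With cells of at least 3500 detected genes, chosen after seeing the data, the median against the R412X-GMP run was −0.55. Members higher went from 0 to 3 against the R412X-GMP run and against all GMP, 11 to 22 against late July GMP (3 cells left), 2 to 5 in Mono minus Gran-1 and 2 to 1 in cMoP minus Mono. Members lower went from 38 to 13, 36 to 10 and 2 to 8 against the same 3 groups of GMP, 5 to 9 in MP minus Mono and 7 to 3 in Mono minus Gran-1. Too few cells passed for Gran-2 or Myelo-2 minus a Myelo state. With at least 2000, members higher went from 11 to 20 against late July GMP and from 1 to 2 in MP minus Mono, and members lower from 0 to 1 in Gran-2 minus Myelo-2. This was not run for Myelo-2 minus Myelo-4.

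At a pseudocount of 10, members higher went from 11 to 7 against late July GMP, 2 to 1 in Mono minus Gran-1, 19 to 12 in Myelo-2 minus Myelo-4 and 2 to 0 in cMoP minus Mono. Members lower went from 36 to 23 against all GMP, 4 to 2 in Gran-2 minus Myelo-1, 5 to 2 in MP minus Mono, 7 to 3 in Mono minus Gran-1, 1 to 0 in Mono minus Gran-2 and 14 to 8 in cMoP minus Mono. Upper-quartile scaling took members higher in cMoP minus Mono from 2 to 1.

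Leaving out each cell in turn, members higher ranged from 1 to 3 in MP minus Mono, 0 to 5 in Mono minus Gran-1 and 1 to 8 in cMoP minus Mono. Members lower ranged from 2 to 4 against late July GMP, 2 to 5 in Gran-2 minus Myelo-1, 0 to 1 in Gran-2 minus Myelo-2, 2 to 7 in MP minus Mono, 4 to 10 in Mono minus Gran-1, 0 to 2 in Mono minus Gran-2 and 3 to 9 in Mono between runs. Depth is unknown, and small groups of cells without named animals limit every value.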
